A study of Mus musculus with 6 samples.

Results

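Of the 1109 mature microRNA (miRNA) entries counted in RAW 264.7 cells, 9 are miRNAs that mark red cells, liver or striated muscle rather than macrophages, and they were taken by name. The red cell miRNAs are miR-451a, miR-144-3p, miR-144-5p, miR-486a-5p and miR-486b-5p, the liver miRNA is miR-122-5p, and the muscle miRNAs are miR-1a-3p, miR-133a-3p and miR-133b-3p. All 9 were in the table and had enough reads to be tested, as did 475 entries in all. RAW 264.7 is a mouse macrophage-like line, labelled male, and small RNA was sequenced from 3 libraries of cells exposed for 48 h to ox-LDL, an oxidized lipoprotein that macrophages take up (oxLDL), and from 3 libraries of cells without treatment (control). The names of the control columns give 0 h, so that time in culture and the treatment cannot be told apart, and whether each library had a culture of its own is not stated, so p-values rest on a spread between libraries that may be technical. The medium, any serum in it and the day of preparation are not given in the sources used here.

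MiR-451a and miR-144 are cut from 1 transcript that red cell precursors make under the factor GATA1, and the precursor of miR-451a is trimmed by the Argonaute protein AGO2 in place of Dicer. MiR-486 lies in the ankyrin gene Ank1 and is plentiful in red cells and muscle, miR-122 is the dominant miRNA of hepatocytes, and miR-1 and miR-133 are made together in heart and skeletal muscle. All of them also circulate in blood, and serum is added to most culture media. The question put to these data was whether they were high together in the same library.

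The sequences of 4 of the 9 miRNAs were in the RefSeq table used (build GRCm38.p6), and 1 further muscle miRNA, miR-206-3p, is shown because its hairpin is the neighbour of that of miR-133b. Capitals mark the seed, bases 2 to 8 from the 5′ end, by which a miRNA pairs with its targets. They are shown because the results turn on whether these molecules were high in the same library, and the printed ones have seeds that differ from each other.
miR-451a (chr11:78073186-78073207, plus strand): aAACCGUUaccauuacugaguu
miR-144-3p (chr11:78073047-78073066, plus strand): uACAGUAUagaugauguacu
miR-144-5p (chr11:78073010-78073032, plus strand): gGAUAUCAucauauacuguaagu
miR-133b-3p (chr1:20682834-20682855, plus strand): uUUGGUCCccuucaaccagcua
miR-206-3p (chr1:20679055-20679076, plus strand): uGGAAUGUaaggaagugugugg
No other entry with a sequence in that table shared these seeds, but miR-1a-3p and miR-133a-3p had none there and were not compared. As background, miR-1 belongs to the seed family of miR-206, and miR-133a to that of miR-133b. In GENCODE annotation of GRCm38, the hairpins Mir144 (chromosome 11, 78073005 to 78073070) and Mir451a (chromosome 11, 78073170 to 78073241) stand 99 bases apart on the plus strand, in no other annotated gene. Mir133b (chromosome 1, 20682769 to 20682887) and Mir206 (chromosome 1, 20679010 to 20679082) lie 3686 bases apart in exons of the long noncoding RNA Gm28653. The hairpins of miR-486a (chromosome 8, 23142555 to 23142682, plus strand) and miR-486b (23142573 to 23142662, minus strand) lie on opposite strands of the same place in an intron of Ank1. Their 5p entries held identical values in all 6 libraries and are 1 measurement given under 2 names. Some of these values were not whole, such as 84.5 reads in oxLDL replicate 1. Whether each name holds all of the shared reads or an equal part of them is not given, so the level under each name may be a part only. MiR-1a-3p and miR-133a-3p each come from 2 hairpins, and the copies on chromosome 2 (Mir1a-1, 180389048 to 180389124, and Mir133a-2, 180398379 to 180398482) lie in no other annotated gene. MiR-133a-3p and miR-133b-3p are near-identical, so how their reads were divided is uncertain.

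The libraries held between 5502826 and 6572486 miRNA reads in oxLDL and between 6570099 and 7373188 in control. Levels below are CPM, the reads of an entry relative to the library total, after TMM normalization, and 1 CPM stood for between 5.37 reads (oxLDL replicate 1) and 7.56 reads (control replicate 2). The 7 macrophage and myeloid entries fixed as a check (miR-21a-5p, miR-142a-5p, miR-142a-3p, miR-342-3p, miR-155-5p, miR-223-3p and miR-223-5p) were all present and summed to between 173382 and 192211 CPM in oxLDL and between 164188 and 182722 CPM in control. The 9 miRNAs together were traces beside that sum, which was mostly miR-21a-5p and miR-142a-5p. The scarcer miR-223-3p was at 61.1, 161 and 105 CPM in oxLDL and 77.3, 67.8 and 75.5 CPM in control. Of the 9, miR-133a-3p was above it in oxLDL replicate 1 and control replicates 1 and 2 (226, 85.1 and 449 CPM) and below it elsewhere. In control replicate 2, miR-451a (142 CPM) and miR-122-5p (85.6 CPM) were above it too, and only there. The 9 miRNAs made up 0.0308%, 0.0162% and 0.0113% of the reads in oxLDL replicates 1, 2 and 3, and 0.0191%, 0.0899% and 0.0196% in control replicates 1, 2 and 3. Control replicate 2 thus held more of them than any other library.

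Among the red cell miRNAs, mmu-miR-451a, which is needed for red cell precursors to mature under stress, was at 41.9, 20.2 and 18.3 CPM in oxLDL replicates 1, 2 and 3, and at 43.2, 142 and 55.4 CPM in the controls. Every oxLDL library lay below every control library, though oxLDL replicate 1 was close to control replicate 1. It averaged 26.8 ± 13.1 CPM in oxLDL and 80.3 ± 54.0 CPM in control (SD, n = 3 each). It was 3.00 times lower in oxLDL, with a log2 fold change of -1.59 (SE 0.506, edgeR quasi-likelihood adjusted p = 0.0341). The mmu-miR-144-3p arm, the guide of the neighbouring hairpin, was at 2.61, 1.31 and 1.68 CPM in oxLDL and 2.60, 5.96 and 3.28 CPM in control. Its groups touched at oxLDL replicate 1 and control replicate 1, and it did not pass (log2 fold change -1.09, SE 0.414, edgeR adjusted p = 0.0620). The other arm, mmu-miR-144-5p, was at 2.61, 0.493 and 0.840 CPM in oxLDL and 1.78, 4.50 and 1.501 CPM in control, with 3 to 14 reads in each oxLDL library and 11 to 34 in each control library. The groups overlapped, and the log2 fold change of -1.02 (SE 0.655) missed the threshold (edgeR adjusted p = 0.232).

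The mmu-miR-486a-5p entry, from the hairpin in Ank1, was at 15.6, 11.0 and 12.8 CPM in oxLDL and 18.3, 64.3 and 16.6 CPM in control, and mmu-miR-486b-5p had the same values. The groups did not overlap, but control replicates 1 and 3 lay within a few CPM of oxLDL replicate 1. It did not pass (log2 fold change -1.33, SE 0.518, edgeR adjusted p = 0.0658). Among the oxLDL libraries it varied less than miR-451a, with a coefficient of variation of 17.8% against 48.9%, n = 3 for both.

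Liver mmu-miR-122-5p, a regulator of lipid metabolism, was at 2.42, 1.97 and 11.9 CPM in oxLDL and 18.6, 85.6 and 5.05 CPM in control. The groups overlapped, since oxLDL replicate 3 was above control replicate 3. It averaged 5.44 ± 5.63 CPM in oxLDL and 36.4 ± 43.1 CPM in control (SD, n = 3 each). Its fold change had the largest size and the largest SE of the 9 (log2 fold change -2.73, SE 1.06) and missed the threshold (edgeR adjusted p = 0.0655). It was the least even of the 9 miRNAs in both groups, with coefficients of variation of 103% in oxLDL and 118% in control.

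Among the muscle miRNAs, mmu-miR-133a-3p, a repressor of smooth muscle genes in the heart, was the one with most reads of the 9. It was at 226, 124 and 58.8 CPM in oxLDL and 85.1, 449 and 70.4 CPM in control. It averaged 136 ± 84.3 CPM in oxLDL and 202 ± 215 CPM in control (SD, n = 3 each). The 2 lower control libraries lay inside the range of oxLDL, and the highest lay above it. It did not pass (log2 fold change -0.56, SE 0.750, edgeR adjusted p = 0.554). The mmu-miR-133b-3p entry, its relative from the hairpin beside Mir206, was at 4.28, 2.63 and 0.336 CPM in oxLDL and 1.64, 9.93 and 2.32 CPM in control, down to 2 reads in oxLDL replicate 3. The groups overlapped as for miR-133a-3p (log2 fold change -0.96, edgeR adjusted p = 0.374). The mmu-miR-1a-3p entry, which restrains the growth of heart and skeletal muscle precursors, was at 4.66, 1.97 and 3.02 CPM in oxLDL and 2.74, 21.6 and 3.96 CPM in control. Outside control replicate 2 all its values were under 5 CPM, and it did not pass (log2 fold change -1.56, SE 0.792, edgeR adjusted p = 0.137).

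**Figure D1:**
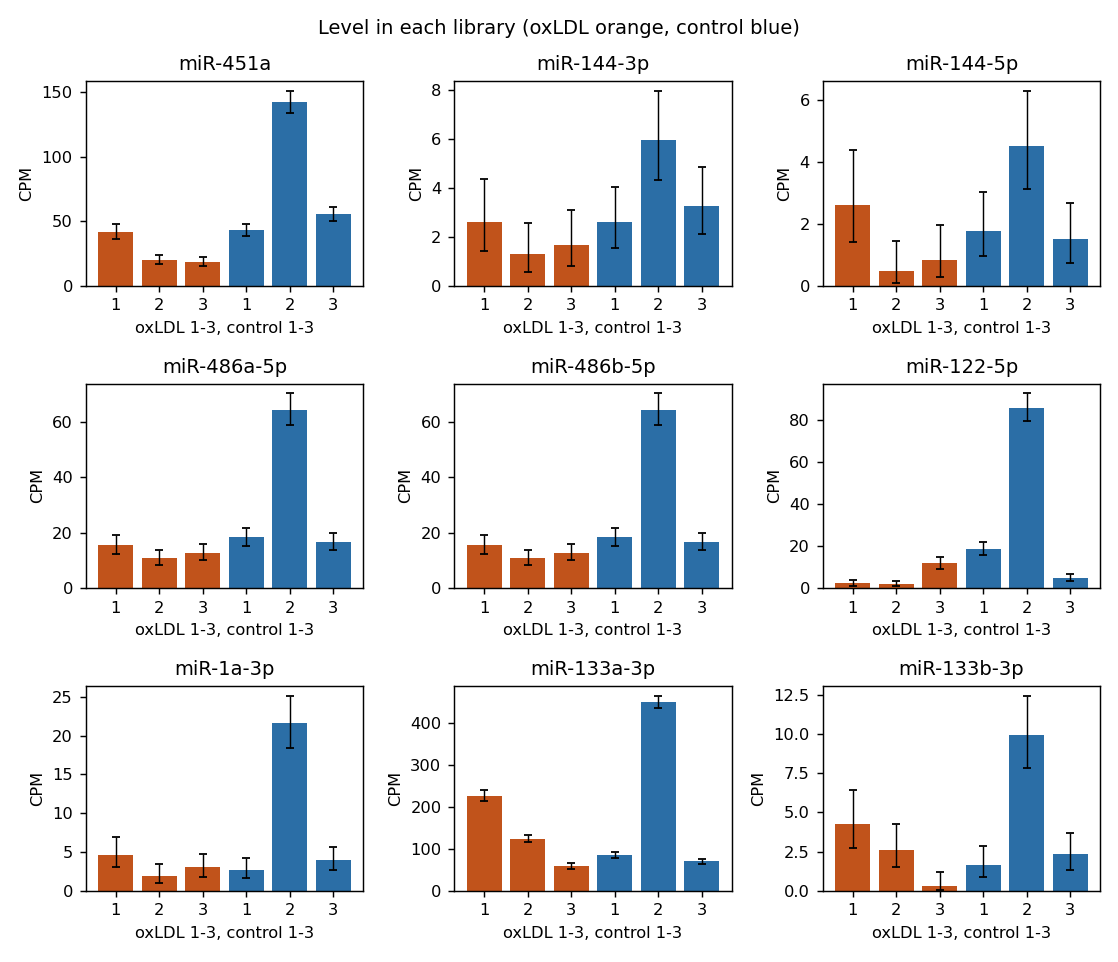
CPM after TMM scaling (vertical axes, each from 0) of the 9 miRNAs in oxLDL replicates 1 to 3 (orange) and control replicates 1 to 3 (blue), with 95% exact Poisson intervals that cover counting error only. Control replicate 2 is the highest bar in all 9 panels, at 142 CPM for miR-451a, 85.6 CPM for miR-122-5p and 449 CPM for miR-133a-3p.

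Set against all entries, 1 of the 9 miRNAs, miR-451a, was called lower in oxLDL at an edgeR adjusted p of 0.05 and none was called higher, while 24.0% of the 475 tested entries were called lower, 21.7% higher and 45.7% in either direction. The number called among the 9 was no larger than that background. All 9 had a log2 fold change below 0, with a median of -1.33 against -0.13 over all tested entries, of which 259 (54.5%) were below 0. Groups that did not overlap, lower in oxLDL, were seen for 3 of the 9 (miR-451a and the shared measurement of miR-486a-5p and miR-486b-5p), against 31.2% of all tested entries, while 28.2% did not overlap in the higher direction and 59.4% in either.

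The common direction came with a common library. Each of the 9 miRNAs had its highest level in control replicate 2, as did 91 of the 475 tested entries (19.2%) and 65 of the 298 tested entries whose mean level lay between those of the lowest and the highest of the 9, from 1.95 to 169 CPM (21.8%). Control replicate 2 stood above the mean of control replicates 1 and 3 by 7.24 times for miR-122-5p, 6.45 times for miR-1a-3p, 5.78 times for miR-133a-3p and 5.01 times for miR-133b-3p. These 4 ratios were the highest of all 475 tested entries. The red cell miRNAs were lower, with 3.68 times for miR-486a-5p and miR-486b-5p, 2.89 times for miR-451a, 2.74 times for miR-144-5p and 2.03 times for miR-144-3p. Entries outside the 9 ranked among them, such as miR-136-3p (3.76 times) and miR-375-3p (3.10 times). In all, 6 entries outside the 9 had a ratio at least as high as that of miR-144-3p. The median of this ratio over all tested entries was 0.988, and 16 of them (3.37%) reached 2, among which were all 9. For 7 of the 9 the 95% counting interval in control replicate 2 lay above that of every other library, for example 134 to 151 CPM for miR-451a, with the highest upper limit elsewhere at 61.1 CPM. The exceptions were the arms of miR-144, whose intervals (4.34 to 7.97 CPM for miR-144-3p and 3.12 to 6.29 CPM for miR-144-5p) met those of other libraries.

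**Figure D2:**
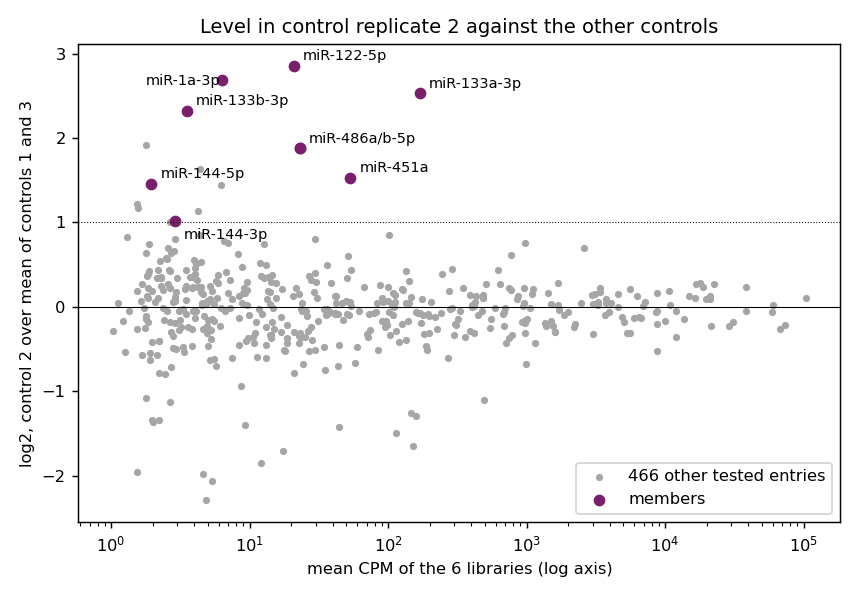
Log2 of the level in control replicate 2 over the mean of control replicates 1 and 3 (vertical axis) against the mean CPM of the 6 libraries (horizontal log axis) for the 475 tested entries, with the 9 miRNAs in purple, of which miR-486a-5p and miR-486b-5p are 1 point. All lie at or above the dotted line of a 2 times higher level, while the tested entries as a whole centre on a ratio of 0.988.

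The 9 miRNAs were also uneven between replicates. The median coefficient of variation of the 9 miRNAs was 48.9% in oxLDL and 81.7% in control, against 16.6% and 14.9% for the tested entries as a whole. Only 41 of the 475 tested entries, the 9 among them, were as uneven in control as the least uneven of the 9.

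The 9 miRNAs did not move as a block in the other 5 libraries. With control replicate 2 set aside, the highest level was in oxLDL replicate 1 for 4 of them (miR-144-5p, miR-1a-3p, miR-133a-3p and miR-133b-3p), in control replicate 1 for 3 (miR-486a-5p, miR-486b-5p and miR-122-5p) and in control replicate 3 for 2 (miR-451a and miR-144-3p). Of all tested entries, 20.4%, 30.9% and 18.5% were highest in these libraries, in that order. Among the oxLDL libraries alone, replicate 1 was the highest for 8 of the 9, against 35.4% of all tested entries. The exception was miR-122-5p, which was highest in oxLDL replicate 3, 6.06 times above its lowest oxLDL library. In that same library miR-133a-3p, miR-133b-3p and the red cell miRNA miR-451a were at their lowest of all 6. Summed by tissue, the muscle miRNAs stood at 235, 129 and 62.2 CPM in oxLDL replicates 1, 2 and 3 and at 89.5, 481 and 76.7 CPM in the controls, whereas the red cell miRNAs stood at 78.4, 44.0 and 46.4 CPM in oxLDL and at 84.3, 281 and 93.5 CPM in control.

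Ratios of reads within a library, which do not depend on scaling, show which miRNAs kept a proportion. Adaptor ligation favours some RNA ends, so a ratio is compared between libraries only and not read as molecules. Within the red cell group, miR-486a-5p over miR-451a was 0.376, 0.545 and 0.693 in oxLDL and 0.424, 0.453 and 0.302 in control, a spread of 2.296 times between the highest and lowest library. The neighbours miR-144-3p over miR-451a stayed within 2.19 times over the 6 libraries, and within 1.44 times in the controls. The arms of miR-144 stayed within 2.67 times, on few reads.

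Within the muscle group, miR-133a-3p over miR-1a-3p was 48.6, 63.1 and 19.4 in oxLDL and 31.1, 20.8 and 17.8 in control, a spread of 3.55 times. Of the 2 oxLDL libraries with most miR-133a-3p, replicate 1 had the most miR-1a-3p outside control replicate 2, and replicate 2 the least of all 6 libraries. MiR-133a-3p over miR-133b-3p was 52.8, 47.3 and 175 in oxLDL and 51.8, 45.3 and 30.4 in control, a spread of 5.77 times in which the highest value rests on 2 reads of miR-133b-3p. Between tissues, miR-133a-3p over miR-451a was 5.40, 6.15 and 3.21 in oxLDL and 1.97, 3.16 and 1.27 in control, a spread of 4.84 times over all 6. Every oxLDL library was above every control library, if narrowly between oxLDL replicate 3 and control replicate 2. Within oxLDL this ratio spread over 1.92 times, near the 1.84 times of the red cell ratio miR-486a-5p over miR-451a. MiR-122-5p over miR-451a was 0.0578, 0.0976 and 0.651 in oxLDL and 0.430, 0.602 and 0.0911 in control, a spread of 11.3 times. It was near 0.6 in oxLDL replicate 3 and control replicate 2 and below 0.1 in 3 other libraries of both groups. These ratios are descriptions with no test.

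**Figure D3:**
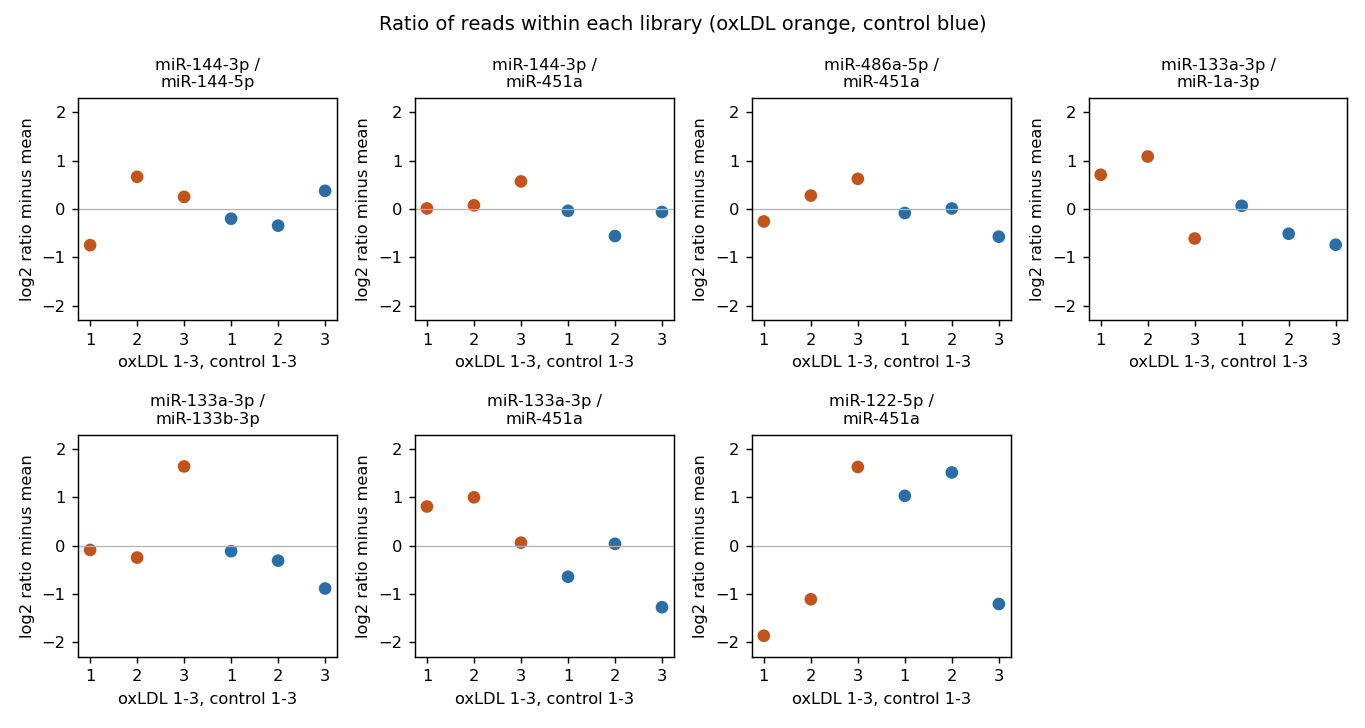
Log2 ratio of the reads of 2 miRNAs in each library minus its mean over the 6 libraries (vertical axes, same range in all panels), for oxLDL replicates 1 to 3 (orange) and control replicates 1 to 3 (blue). The first 3 panels, all red cell ratios, stay within 2.67 times from lowest to highest. The muscle ratio miR-133a-3p over miR-1a-3p spreads over 3.55 times. Between tissues, miR-133a-3p over miR-451a spreads over 4.84 times and miR-122-5p over miR-451a over 11.3 times. The high point of miR-133a-3p over miR-133b-3p rests on 2 reads of miR-133b-3p.

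Each comparison was repeated without control replicate 2. The mean of oxLDL over the mean of the 2 other controls was then 0.543 for miR-451a, 0.751 for miR-486a-5p, 0.636 for miR-144-3p, 0.801 for miR-144-5p and 0.460 for miR-122-5p. It was 0.961 for miR-1a-3p, 1.22 for miR-133b-3p and 1.75 for miR-133a-3p. In edgeR's fit the log2 fold change without that library was -0.88 for miR-451a (adjusted p = 0.0813), -0.66 for miR-144-3p, -0.36 for miR-144-5p, -0.42 for miR-486a-5p, -1.11 for miR-122-5p and -0.07 for miR-1a-3p. It turned to 0.81 for miR-133a-3p and 0.26 for miR-133b-3p, and none of the 9 passed. The call of miR-451a was also lost without oxLDL replicate 2 (log2 fold change -1.42, edgeR adjusted p = 0.120) or oxLDL replicate 3 (-1.37, 0.0893), where the fold stayed close to the -1.59 of all libraries. Others of the 9 passed when a different library was left out. MiR-122-5p passed without oxLDL replicate 3 (log2 fold change -4.05, edgeR adjusted p = 0.0348) or control replicate 3 (-3.28, 0.0221). MiR-486a-5p and miR-486b-5p passed without control replicate 3 (-1.70, edgeR adjusted p = 0.0301). MiR-144-3p passed without oxLDL replicate 1 (-1.43, edgeR adjusted p = 0.0497) or control replicate 1 (-1.31, 0.0457). The part that the high level in control replicate 2 plays in the other differences between the groups was not tested.

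**Figure D4:**
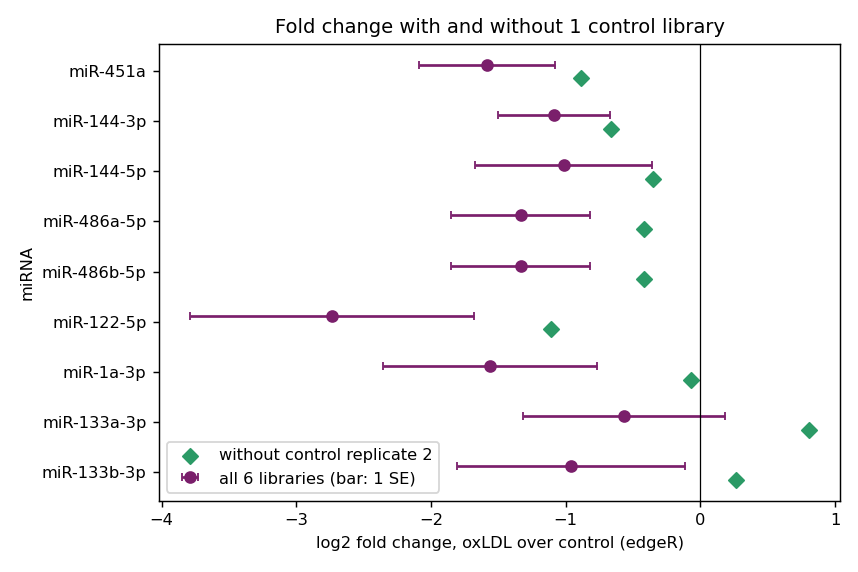
Log2 fold change of oxLDL over control in edgeR's fit (horizontal axis) for each of the 9 miRNAs with all 6 libraries (circles, bars of 1 SE) and without control replicate 2 (diamonds). All 9 circles lie below 0, while the diamonds of miR-133a-3p and miR-133b-3p lie at 0.81 and 0.26.

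Further miRNAs of the same tissues were read from fixed lists. Of 11 other arms and copies of these hairpins 5 were in the table, among them the passenger arm miR-122-3p, with 0, 0 and 2 reads in oxLDL and 3, 14 and 1 in control, and miR-486a-3p, with none in any oxLDL library and 1, 5 and 1 in control. Both were highest in the library in which their partner arms were highest, on few reads. Their counting intervals there overlapped those of other libraries. They were 7.65 to 23.5 reads against up to 8.77 elsewhere for miR-122-3p, and 1.62 to 11.7 against up to 5.57 for miR-486a-3p. A count of 0 has an upper limit of 3.69 reads in the exact 95% Poisson interval. The most abundant of that list, miR-1b-3p, was at 3.17, 3.28 and 2.35 CPM in oxLDL and 3.01, 3.04 and 2.59 CPM in control and did not stand out in control replicate 2 (log2 fold change 0.02, edgeR adjusted p = 0.946). The next, miR-1b-5p, too low to be tested, had 5, 20 and 6 reads in oxLDL and 7, 6 and 11 in control. Its lowest level was in control replicate 2 (0.794 CPM). Of 5 other muscle miRNAs 2 were in the table. The slow-muscle miRNA miR-499-5p was at 9.50, 5.58 and 2.35 CPM in oxLDL and 3.97, 11.5 and 4.50 CPM in control, with its highest oxLDL level in replicate 1 and its lowest in replicate 3, as for miR-133a-3p (log2 fold change -0.21, edgeR adjusted p = 0.778). The skeletal muscle miRNA miR-206-3p, too low to be tested, had 3, 1 and 5 reads in oxLDL and 10, 37 and 5 in control. The liver and pancreas miRNA miR-802-5p had 2, 0 and 2 reads in oxLDL and 11, 41 and 0 in control. The 3 tested entries of the liver list are more abundant and differed. MiR-148a-3p was highest in control replicate 2 (1568 CPM). MiR-192-5p (1007 CPM) and miR-194-5p (127 CPM) were above the other controls there. Their highest levels were in oxLDL replicate 3 (1327 CPM) and oxLDL replicate 2 (140 CPM), and miR-192-5p was higher in every oxLDL library than in control replicate 2.

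Some miRNAs of other tissues shared the high library. Among the 16 tested entries at least 2 times higher in control replicate 2, the 7 outside the 9 were miR-136-3p, miR-375-3p, miR-499-5p, miR-505-3p, miR-3079-3p, miR-381-3p and miR-6994-5p, named after their values were seen. The islet miRNA miR-375-3p was at 2.05, 1.64 and 5.38 CPM in oxLDL and 3.69, 10.6 and 3.14 CPM in control, with its oxLDL peak in replicate 3 as for miR-122-5p (log2 fold change -0.94, edgeR adjusted p = 0.229). The neuronal miRNA miR-124-3p, too low to be tested, showed the same pair of libraries, with 3, 1 and 33 reads in oxLDL and 8, 41 and 4 in control. It was picked from 7 neural entries after their values were seen. MiR-9-5p was also highest in that pair (42.3 and 46.3 CPM), and miR-137-3p was highest in control replicate 2, on 13 reads. MiR-138-5p and miR-218-5p were highest in control replicate 3, miR-219a-5p in oxLDL replicate 1 and miR-9-3p in control replicate 1.

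By the fixed rule, the 6 entries of at least 10 CPM outside the 9 with the highest ratio of control replicate 2 to the other controls were miR-194-5p (1.80 times), miR-9-5p (1.75), miR-192-5p (1.69), miR-201-5p (1.67), miR-143-3p (1.62) and miR-148a-3p (1.53). All 6 were below the lowest of the 9. Of these, miR-148a-3p fell by 1.83 on the log2 scale in oxLDL (edgeR adjusted p = 0.00384), while miR-201-5p (1.87, adjusted p = 0.000699) and miR-192-5p (0.75, adjusted p = 0.0263) rose, and the other 3 did not pass. The call of miR-192-5p was lost without oxLDL replicate 2, oxLDL replicate 3, control replicate 1 or control replicate 3, with an edgeR adjusted p of up to 0.0897 and log2 fold changes of 0.75, 0.69, 0.67 and 0.53 in that order. MiR-143-3p of smooth muscle was at 3401, 1794 and 834 CPM in oxLDL and 1903, 4316 and 3419 CPM in control. Profiles over the 6 libraries were compared only among entries with a mean of at least 10 CPM. Of these, outside the red cell group, miR-148a-3p was nearest to miR-451a. Its root mean square distance was 0.394 on the log2(CPM + 1) scale after centring. For miR-122-5p (1.06) and miR-133a-3p (0.674) the nearest such entry outside their own tissue group was miR-486a-5p. Scarcer entries, such as the muscle miRNA miR-499-5p (mean 6.24 CPM) and miR-375-3p (mean 4.41 CPM), were left out of this comparison.

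**Figure D5:**
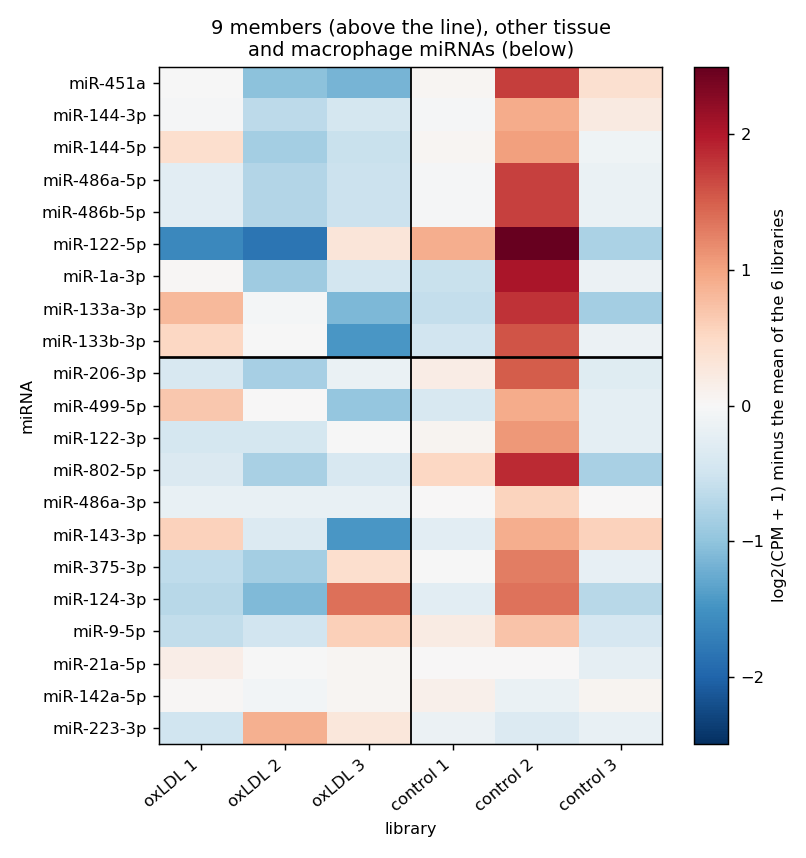
Log2(CPM + 1) minus the mean of the 6 libraries (colour scale) for the 9 miRNAs above the line and for other tissue and macrophage miRNAs below it, chosen from the fixed lists after their values were seen, with oxLDL libraries on the left and control libraries on the right. Control replicate 2 is the reddest column for all 9, oxLDL replicate 3 is red for miR-124-3p, which had 33 reads there, and miR-21a-5p and miR-142a-5p are nearly white throughout.

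The other lists differed in how many members were highest in control replicate 2, as 19.2% of all tested entries were. Of tested members the number was 1 of 1 for other muscle miRNAs, 0 of 1 for other arms and copies, 1 of 3 for other liver miRNAs, 0 of 4 for red cell miRNAs that macrophages also make, 3 of 3 for endothelium and smooth muscle, 1 of 7 for epithelium, 1 of 5 for neural cells, 1 of 5 for fibroblasts, 1 of 1 for pancreas and 1 of 7 for macrophages. Entries too low to be tested, miR-206-3p, miR-802-5p, miR-124-3p, miR-1b-5p and miR-217-5p among them, are outside these counts. In edgeR's test 1 fell and 1 rose in the liver list, 2 and 1 in the red cell and macrophage list, 1 and 0 in endothelium and smooth muscle, 2 and 2 in epithelium, 1 and 1 in neural cells, 2 and 0 in fibroblasts, 1 and 0 in the macrophage list, and none in the pancreas list, the other muscle list or the other arms and copies. Several of these calls did not outlast the loss of a library. The neural rise was lost in each of the 6 fits without 1 library, and the liver rise, the red cell and macrophage rise, the endothelium and smooth muscle fall and the macrophage fall were each lost in at least 3 of them. The epithelial rises and the fibroblast falls dropped to 1 in some. The most abundant red cell miRNA that macrophages also make, miR-16-5p, was at 18431, 53290 and 35507 CPM in oxLDL and 27621, 23634 and 25757 CPM in control, so it was not raised in control replicate 2.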

How the data were processed

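Estimated counts per mature miRNA, not scaled, make up the single table that the authors deposited, of which 117 of 6654 values in 40 entries were not whole (tolerance 1e-06). GRCm38.p5 is the build named, per the submitters' processing notes. The aligner, the counter, the miRNA database and how shared reads were divided are not given in the sources used here. Per the labels' protocols, small RNA was purified on a gel, ligated to adaptors, amplified and sequenced. PCR reads are not independent molecules, so exact Poisson intervals (95%, up to 3.69 reads at a count of 0) cover counting error only.

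Columns were matched to samples by the group and number in their names. Counts were rounded to whole numbers and tested with edgeR 4.0.16 (R 4.3.3) by the quasi-likelihood test with TMM factors, edgeR's filter by group, Benjamini-Hochberg adjustment over 475 entries and a threshold of 0.05. The SE is the log2 fold change over the root of F. No pair of libraries was a repeat of 1 library (the lowest chi-square over its degrees of freedom was 121). Tested on simulated data of 469 entries, edgeR found 26 of 70 true changes of 1.5 times, 37 of 53 of 2 times and 69 of 70 of 4 times, with 5 false calls among 276 entries. Alternatives used DESeq2 1.42.0 and limma-voom (limma 3.58.1), other scalings and filters, a replicate block and leaving out each library, with the tested entries kept.

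The 9 miRNAs and all lists were chosen with earlier results of these data known. Others were named by rule. Among entries with a mean of at least 10 CPM, they were the 6 with the highest ratio in control replicate 2. From the same entries came the nearest profile to each of miR-451a, miR-122-5p and miR-133a-3p outside its own tissue group. The 2 most abundant entries of each list were also named, of which tested ones without a comparison are given as counts. MiR-217-5p of the pancreas list, too low to be tested, had 1, 0 and 0 reads in oxLDL and 0, 1 and 1 in control. The lists are other arms and copies, other muscle, other liver, red cell and macrophage, endothelium and smooth muscle, epithelium, neural cells, fibroblasts, pancreas and macrophages. Names matched the table exactly.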

Additional observations from a re-analysis of the deposited data

How the results depend on the processing

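The count of the 9 miRNAs past the threshold was 1, and it was 1 with RLE factors, a mean of at least 10 CPM, limma-voom, median centring, identical entries counted once and counts rounded down. It was 5 with library totals alone, 8 with no filter on low counts and 3 with DESeq2, all of them lower in oxLDL, and ran between 0 and 4 when 1 library was left out. With library totals the log2 fold changes newly past the threshold were -1.24 for miR-144-3p, -1.49 for miR-486a-5p and miR-486b-5p and -2.88 for miR-122-5p, and with DESeq2 they were -1.29 for miR-486a-5p and miR-486b-5p. With no filter they were -1.07 for miR-144-3p, -1.31 for miR-486a-5p and miR-486b-5p, -2.70 for miR-122-5p, -1.54 for miR-1a-3p, -0.54 for miR-133a-3p and -0.94 for miR-133b-3p. The cause was not tested. Leaving out 1 library at a time gave log2 fold changes between -2.11 and -0.88 for miR-451a, -1.43 and -0.66 for miR-144-3p, -1.98 and -0.36 for miR-144-5p, -1.70 and -0.42 for miR-486a-5p and miR-486b-5p, -4.05 and -1.11 for miR-122-5p, -1.997 and -0.07 for miR-1a-3p, -1.21 and 0.81 for miR-133a-3p, and -1.69 and 0.26 for miR-133b-3p. Adjusted p ran up to 0.120 for miR-451a over all settings. All 9 were highest in control replicate 2 also with library totals and with RLE factors, and each had at least 30 reads. In the check added after the data were seen, 5 of the 9 were highest in a control library when control replicate 2 was set aside. Of all tested entries, 30.9% were then highest in control replicate 1 and 18.5% in control replicate 3. Of the other miRNAs with a fold change, miR-1b-3p turned to -0.13 with library totals and ran between -0.0813 and 0.161 with 1 library left out, miR-499-5p ran between -0.80 and 0.44, and miR-9-5p between -0.81 and 0.0125. The call of miR-192-5p was lost with library totals and in 4 of the fits with 1 library left out (adjusted p up to 0.0897). All tested entries called numbered 217, and between 167 and 252 in other settings. Of 320 list counts under other settings, 50 moved by over 1.5 times.

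Same-numbered libraries did not deviate together (correlations of -0.299, -0.232 and -0.105). The check thus showed no pairing by number, but with so few libraries it cannot exclude one. With the replicate block the count of the 9 was 1. Depth limits the scarcest of the 9 most, with as few as 3 reads of miR-144-5p and 2 of miR-133b-3p in an oxLDL library.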
